A study of Mus musculus with 15 samples.

Results

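Th17 cells are CD4 T helper cells named for the cytokine interleukin 17, and this account concerns 9 genes of their programme. The cytokine genes were Il17a, Il17f and Il22, the receptor genes were Il23r and Ccr6, and the regulator genes were Rora, Ahr, Maf and Batf. They were chosen by name, so that every probe annotated to 1 of these genes was taken, and they made up 9 of 34816 gene names and 12 of 55680 probes on the array. CD4 T cells had been sorted by flow cytometry from small-intestinal lamina propria, the tissue under the gut epithelium, and their RNA was amplified and hybridised to 15 one-colour arrays. The 3 groups held 5 arrays each, and all came from male mice. The groups were mice at day 10 of a high-fat diet, mice at day 30 of the same diet, and controls that ate normal chow. The control has no day of its own in the labels, and neither strain, genotype nor age is given in the sources used here. The series text describes the diet as a way to change the gut microbiota, and its title calls the dieted mice prediabetic and diabetic. The question for these genes was how the Th17 programme of gut CD4 T cells stood at each time on the diet. The labels do not say whether each sample of a group was a mouse of its own. The p-values therefore reflect how far these samples scattered, and that scatter may be technical. In such bulk samples fewer cells of a type and less RNA per cell cannot be told apart.

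The small-intestinal lamina propria is a main site of Th17 cells in the healthy mouse, where certain gut bacteria induce them. The cytokines encoded by Il17a, Il17f and Il22 act on epithelial cells, where they raise antimicrobial peptides and barrier function, and the interleukin 17 proteins also draw neutrophils. STAT3, BATF and MAF take part in setting the lineage, and interleukin 23 sustains it. Interleukin 22 is also made in large amounts by innate lymphoid cells.

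The sequences that carry the cytokine readings are the probes, and 2 of them are shown because the largest differences among the 9 genes rest on them. The Il17f probe lies at chr1:20768074-20769419 on the minus strand of build mm9, per the array annotation. Its 60 bases extend over 1346 bases of the genome, which places an intron between its ends. The Il22 probe lies at chr10:117642873-117642932 on the plus strand of mm9, and the transcripts listed for it belong to Il22 and to Iltifb, a near-identical copy, so the signals of these genes cannot be told apart. Both are written 5′ to 3′.
Il17f probe: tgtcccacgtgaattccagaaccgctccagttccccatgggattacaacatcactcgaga
Il22 probe: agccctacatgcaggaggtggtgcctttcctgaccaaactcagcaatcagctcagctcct

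Il17a and Il17f are neighbours on chromosome 1 and are known targets of ROR-family factors, so the stretch before each start site is shown with the ROR half-site in capitals. The motif searched was AGGTCA or its reverse complement TGACCT, on both strands of the 250 bases before the start, in RefSeq promoters of build GRCm38.p6. The Il17a stretch is chr1:20730745-20730830 on the plus strand, and its motif starts 120 bases before the start site. The Il17f stretch is chr1:20784283-20784368 on the minus strand, and its motif starts 58 bases before the start site.
Il17a promoter: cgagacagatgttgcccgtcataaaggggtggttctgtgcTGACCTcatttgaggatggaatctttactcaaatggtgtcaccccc
Il17f promoter: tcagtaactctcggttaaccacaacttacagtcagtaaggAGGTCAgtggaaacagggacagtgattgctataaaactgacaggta
Of the 9 genes, 7 had a promoter in the RefSeq table. The motif stood once before Il17a and once before Il17f, 2 times before Il23r, once in 1 of the 2 promoters listed for Ccr6, and 0 times before Il22, Rora and Batf. It stood before 14.02% of all 32851 promoters, and a match describes these letters only. Ahr and Maf are named without a promoter.

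Levels are log2 of the processed spot intensity minus the 75th percentile of the same array, so a level of 0 equals that percentile, and levels of different probes were not compared. A value is called well above background as the scanner software marks it. On the 15 arrays, between 45.2% and 82.0% of spots were well above background, with 58.5% ± 2.91 at day 10, 51.3% ± 5.48 at day 30 and 63.8% ± 11.96 in control (SD, n = 5 each). Control replicate 1 had the highest share, at 82.0%. Slide 1 held the 5 control arrays and day 10 replicates 1 to 3, and slide 2 held day 10 replicates 4 and 5 and the 5 day 30 arrays, so that no slide held both day 30 and control. All 9 genes passed the filter for testing, in which the brightest probe of a gene had to be well above background on at least 5 arrays.

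The cytokine genes varied widely between arrays of 1 group, and their means were lowest at day 10. Il17f, which encodes a homologue of interleukin 17A, had levels of 2.39, -6.07, -5.69, -5.93 and -3.52 at day 10, of 2.73, 1.30, 1.36, -5.07 and 1.12 at day 30, and of 0.61, -3.08, 0.80, 2.27 and 1.98 in control. Day 10 replicate 1 was above every control array and the other 4 day 10 arrays were below every control array, so the groups overlapped through 1 array. Il17f was well above background on 2 of 5 arrays at day 10, on 4 of 5 at day 30 and on 5 of 5 in control, and the day 10 values of replicates 2, 3 and 4 were therefore not well above background. Its means were -3.77 ± 3.59 at day 10, 0.29 ± 3.06 at day 30 and 0.52 ± 2.14 in control (SD, n = 5 each). The order from low to high was day 10, day 30, control, and the step from day 30 to control was far smaller than either SD.

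Il22, which encodes the epithelial barrier cytokine interleukin 22, was well above background on all 15 arrays. Its levels were -1.07, -0.85, -1.93, -2.57 and -2.08 at day 10, 1.66 and 2.59 on day 30 replicates 2 and 3 against -2.35, -2.12 and -3.24 on the other 3 day 30 arrays, and -1.26, -0.91, 4.77, 1.81 and 0.74 in control. All 5 day 10 arrays lay below the control mean, yet the groups overlapped because control replicates 1 and 2 were as low as the higher day 10 arrays. The means were -1.70 ± 0.72 at day 10, -0.69 ± 2.63 at day 30 and 1.03 ± 2.44 in control (SD, n = 5 each). The order was the same as for Il17f, and the SD was smallest at day 10. Each step in this order was smaller than the SD of the day 30 group.

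Il17a, which encodes the signature cytokine of the lineage, had levels of -3.18, -5.79, -3.47, -0.99 and -5.49 at day 10, of -1.55, -4.68, -0.63, -2.20 and -2.89 at day 30, and of -4.98, -2.89, -0.78, -1.52 and -1.998 in control. It was well above background on 2 of 5 arrays at day 10, 4 of 5 at day 30 and 4 of 5 in control, and the readings not well above background were day 10 replicates 2, 3 and 5, day 30 replicate 2 and control replicate 1. The means were -3.78 ± 1.95 at day 10, -2.39 ± 1.53 at day 30 and -2.43 ± 1.62 in control (SD, n = 5 each). The 3 groups overlapped throughout, and day 30 and control had nearly the same mean.

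**Figure D1:**
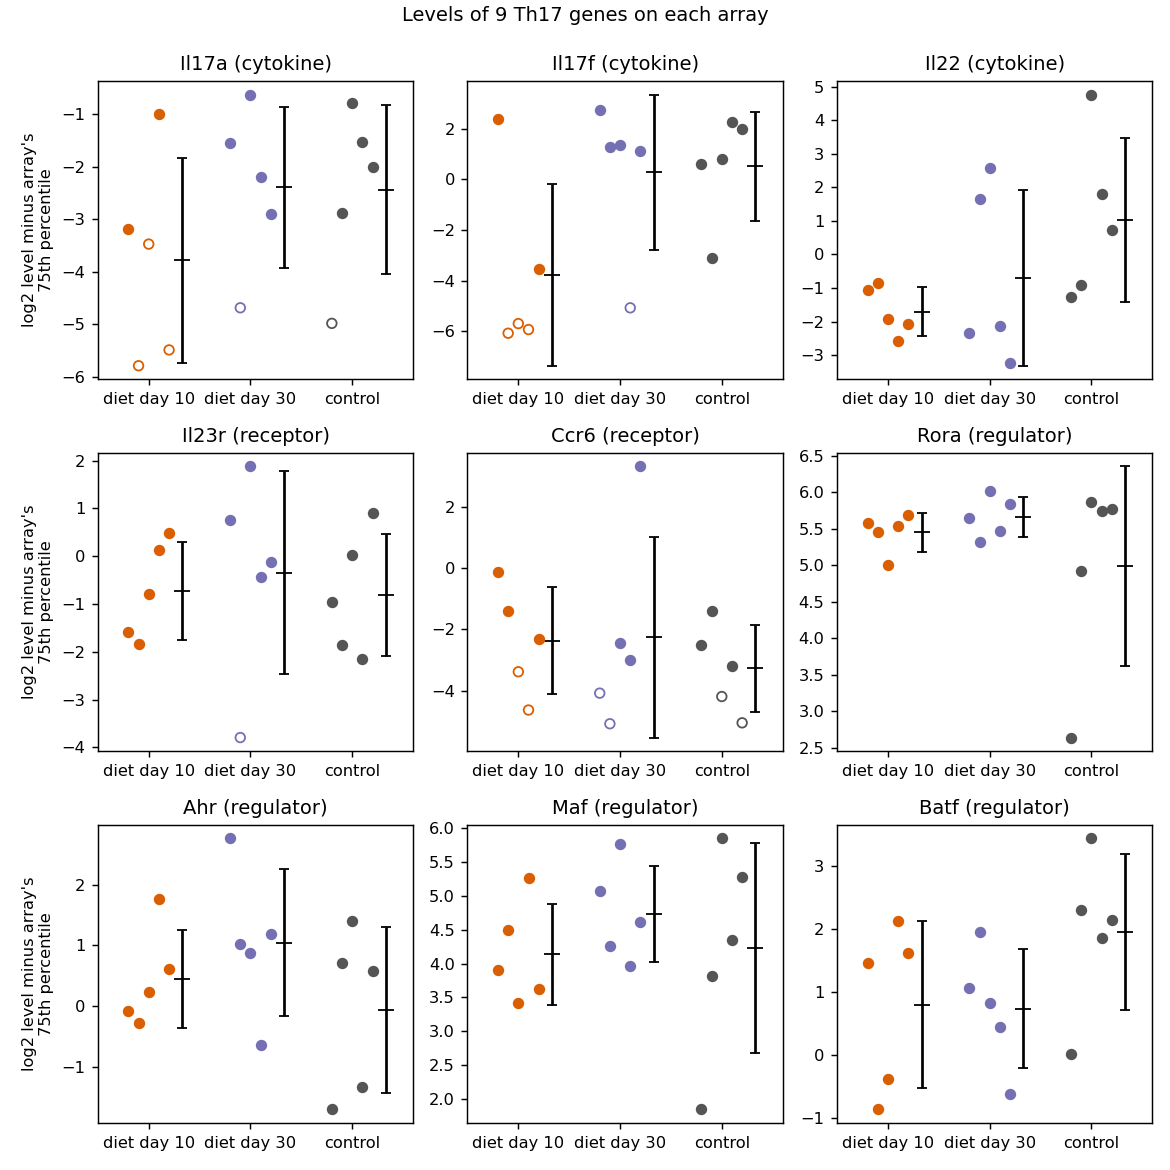
Level of each of the 9 genes on each array (log2 processed intensity relative to the 75th percentile of that array), with 1 panel per gene, the groups from left to right as day 10, day 30 and control, and arrays in the order of their replicate numbers. Filled points were well above background and open points were not, and the bars show the mean ± SD of 5 arrays. Il17f has 3 open points at day 10, while Rora is tight in every group except for control replicate 1 at 2.64 and control replicate 2 at 4.92.

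The receptor genes differed between groups by less than the spread within them. Il23r, which encodes the specific chain of the interleukin 23 receptor, had levels of -1.59, -1.85, -0.78, 0.12 and 0.48 at day 10, of 0.76, -3.79, 1.88, -0.43 and -0.13 at day 30, and of -0.97, -1.85, 0.03, -2.15 and 0.90 in control. Its means were -0.72 ± 1.02 at day 10, -0.34 ± 2.13 at day 30 and -0.81 ± 1.28 in control (SD, n = 5 each). It was well above background on 14 of 15 arrays, and all steps between groups were smaller than the SDs. Ccr6, a chemokine receptor that guides Th17 cells to its ligand CCL20 in the gut wall, was well above background on 3 of 5 arrays in each group. Its means were -2.37 ± 1.74 at day 10, -2.25 ± 3.28 at day 30 and -3.27 ± 1.42 in control (SD, n = 5 each). A single array, day 30 replicate 5 at 3.33, stood far above the other 14, whose highest level was -0.13. Without it the day 30 mean was lower than the control mean, with a log2 difference of -0.38 in place of 1.02.

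On all 15 arrays the 4 regulator genes stood well above background. Rora, which encodes the ROR-family receptor RORα, ranged from 5.00 to 5.69 at day 10 and from 5.32 to 6.03 at day 30, and control held 2.64, 4.92, 5.87, 5.74 and 5.78. Its means were 5.45 ± 0.27 at day 10, 5.66 ± 0.28 at day 30 and 4.99 ± 1.37 in control (SD, n = 5 each), and the control mean was set by replicate 1. Maf, which encodes the factor c-Maf, averaged 4.14 ± 0.75 at day 10, 4.74 ± 0.71 at day 30 and 4.23 ± 1.55 in control (SD, n = 5 each). Its lowest array was again control replicate 1, at 1.84, which was also the lowest control array for Ahr and Batf.

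Ahr, which encodes the aryl hydrocarbon receptor, a sensor of dietary and microbial compounds that drives Il22, averaged 0.45 ± 0.80 at day 10, 1.05 ± 1.20 at day 30 and -0.06 ± 1.36 in control (SD, n = 5 each). Batf, an AP-1 factor that opens Th17 loci, was the only regulator whose mean was lower in both dieted groups. It read 1.47, -0.87, -0.38, 2.14 and 1.62 at day 10, 1.06, 1.96, 0.83, 0.44 and -0.63 at day 30, and 0.02, 2.30, 3.45, 1.85 and 2.14 in control. Its means were 0.80 ± 1.33 at day 10, 0.73 ± 0.94 at day 30 and 1.95 ± 1.24 in control (SD, n = 5 each), and the groups overlapped.

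A second probe existed for Rora, Ahr and Maf. That of Ahr was well above background on 0 of 15 arrays and that of Rora on 4, and neither was tested. That of Maf was well above background on 13 arrays and went against the brighter probe, with log2 differences of 1.40 between day 10 and control and of -0.50 between day 30 and control, where the brighter probe gave -0.09 and 0.51. The direction of Maf is therefore uncertain.

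At day 10 against control, all 3 cytokine genes had lower means, while 4 of the 6 receptor and regulator genes had higher ones. No difference passed the test. The cytokine log2 differences had a median of -2.73, those of the receptors and regulators had a median of 0.28, and the median over all 25997 genes tested was -0.0016. Among all genes, 50.1% had a difference below 0 and 49.9% above 0. Il17f differed by -4.28 (SE 1.69), with a 95% confidence interval of -7.86 to -0.70 and an unadjusted p of 0.0221 in limma. Il22 differed by -2.73 (SE 1.22, interval -5.31 to -0.15), a 6.63-fold lower geometric mean, with an unadjusted p of 0.0393 in limma. These were 2 of 9 genes at an unadjusted p under 0.05 in the lower direction, against 1.7% of all genes, and 0 of 9 were so in the higher direction, against 0.889%. The 9 genes were chosen with earlier results of these data known, so these counts are no test of the set. After Benjamini-Hochberg adjustment over all genes the limma p was 1.00 for each of the 9.

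Il17a differed by -1.35 (SE 1.05) between day 10 and control, Batf by -1.16 (SE 0.72) and Maf by -0.09 (SE 0.62). The positive differences were 0.90 (SE 1.34) for Ccr6, 0.51 (SE 0.71) for Ahr, 0.47 (SE 0.48) for Rora and 0.09 (SE 0.93) for Il23r. Rora turned to -0.12 without control replicate 1. None of the 9 genes separated the day 10 arrays fully from the control arrays, which 0.419% of all genes did. In limma 0 of 25997 genes passed an adjusted p of 0.05 in this comparison (0.0%), with a smallest adjusted p of 0.704, and 673 genes were at an unadjusted p under 0.05.

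The cytokine differences kept their sign within slide 1, where 3 day 10 arrays stood against 5 control arrays, at -3.64 for Il17f, -2.31 for Il22 and -1.71 for Il17a. The unadjusted limma p there was 0.0875 for Il17f and 0.0924 for Il22, and with slide as a block over all arrays it was 0.0863 and 0.128, so neither stayed under 0.05 once slide was allowed for. The regulator Batf differed by -1.88 in both settings, against -1.16 as first processed. Its unadjusted limma p was 0.0459 within slide 1 and 0.0279 with slide as a block (adjusted p 0.9999 in both). When each dim value was replaced by its array's lowest signal that stood well above background, the Il17f difference was -3.14. With normexp background correction it was -1.99 (SE 0.99, unadjusted limma p of 0.0625), that of Il17a was -0.43 and that of Il22 was -2.13. Leaving out single arrays moved Il17f between -5.82, without day 10 replicate 1, and -3.70, and Il22 between -3.30 and -1.79, the last without control replicate 3. Il17a moved between -2.05 and -0.85. With detection share as a covariate the differences were larger, at -4.63 for Il17f, -3.48 for Il22 and -2.09 for Il17a. Their unadjusted limma p was 0.0221, 0.00831 and 0.0406 in that order. The regulators Batf, at -1.56, and Maf, at -0.75, were also under 0.05 there (unadjusted limma p of 0.0360 and 0.0330). The adjusted p was 0.999 for each of these genes. In the deposited value table, which holds an Il17f value for 1 of 5 arrays at day 10, 4 of 5 at day 30 and 5 of 5 in control, the Il17f difference was 1.15. That of Il22 was -1.62 there.

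**Figure D2:**
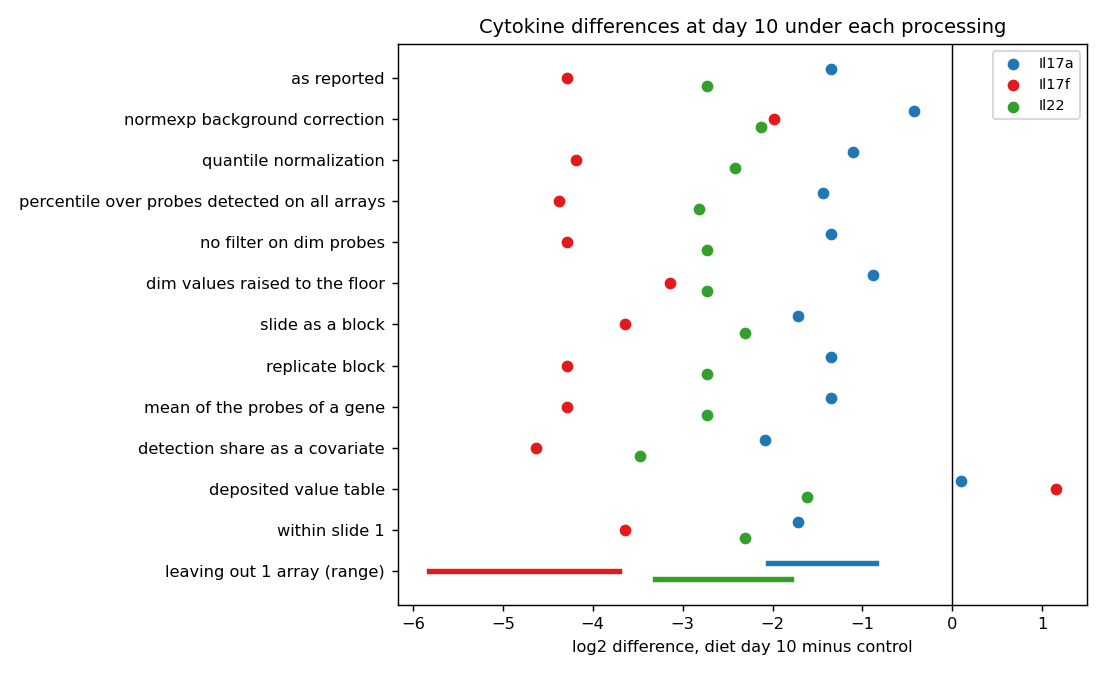
Log2 difference between day 10 and control (x axis) for the 3 cytokine genes under each processing (y axis), with points for single settings and bars for the range over leaving out 1 array at a time. Il22 stays below 0 in each setting plotted, and Il17a and Il17f are above 0 only in the deposited value table, at 0.09 and 1.15.

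At day 30 against control, the cytokine genes no longer shared a direction, and 5 of 6 receptor and regulator genes had higher means. No difference passed the test. The medians were -0.23 for the cytokines, 0.59 for the receptors and regulators and 0.0049 for all genes, of which 50.3% had a difference above 0 and 49.7% below 0. Il22 had the largest difference of the 9, at -1.72 (SE 1.22, 95% interval -4.30 to 0.86). Il17f differed by -0.23 (SE 1.69) and Il17a by 0.04 (SE 1.05). The Il17f difference was 1.11 without day 30 replicate 4, the 1 array of that group on which this gene was not well above background.

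Batf differed by -1.22 (SE 0.72) between day 30 and control, and 4 of the 5 dieted arrays lay under the mean of the controls. Over all alternative settings the Batf difference lay between -3.03 and -0.85. Ahr differed by 1.11 (SE 0.71), Ccr6 by 1.02 (SE 1.34), Rora by 0.67 (SE 0.48), Maf by 0.51 (SE 0.62) and Il23r by 0.47 (SE 0.93). Leaving out single arrays moved Rora between 0.09 and 0.89, Maf between -0.09 and 0.92 and Ahr between 0.68 and 1.52. It moved Ccr6 between -0.38 and 1.73 and Il23r between -0.09 and 1.33, so the higher means of Maf, Ccr6 and Il23r each hung on 1 array. Adjusted limma p-values of the 9 genes lay between 0.927 and 0.999. None of them was at an unadjusted p under 0.05, against 5.14% of all genes in either direction, 2.67% lower and 2.47% higher, and none separated the groups fully, against 0.604%. In limma 0 of 25997 genes passed at an adjusted p of 0.05 (0.0%), with a smallest adjusted p of 0.367 and 1337 genes at an unadjusted p under 0.05.

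At day 30 against day 10, all 3 cytokine genes had higher means, as did 5 of the 6 receptor and regulator genes. No difference passed the test. The medians were 1.39 for the cytokines, 0.30 for the receptors and regulators and 0.06 for all genes, of which 53.1% had a difference above 0 and 46.9% below 0. Il17f differed by 4.05 (SE 1.69, 95% interval 0.47 to 7.63), with an unadjusted limma p of 0.0289 and an adjusted p of 0.999. It was the 1 gene of the 9 at an unadjusted p under 0.05 in the higher direction, against 1.82% of all genes. None was so in the lower direction, against 2.29%, or 4.1% of all genes in either direction. These counts too are no test of the set. Il17a differed by 1.39 (SE 1.05) and Il22 by 1.01 (SE 1.22). The day 10 arrays enter both this comparison and that against control, so these values are not independent of the ones above.

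On the brightest probe of each gene, the remaining differences between day 30 and day 10 were small, from -0.06 for Batf to 0.60 for Maf. The second Maf probe went the other way, at -1.90 (SE 1.23). Within slide 2, where 5 day 30 arrays stood against 2 day 10 arrays, the difference was 5.01 for Il17f, 1.64 for Il22 and 0.85 for Il17a. With normexp background correction, over all arrays, the Il17f difference was 2.01 and that of Il17a 0.45. None of the 9 genes separated the groups fully, against 0.569% of all genes. In limma 0 of 25997 genes passed at an adjusted p of 0.05 (0.0%), with a smallest adjusted p of 0.432 and 1067 genes at an unadjusted p under 0.05.

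**Figure D3:**
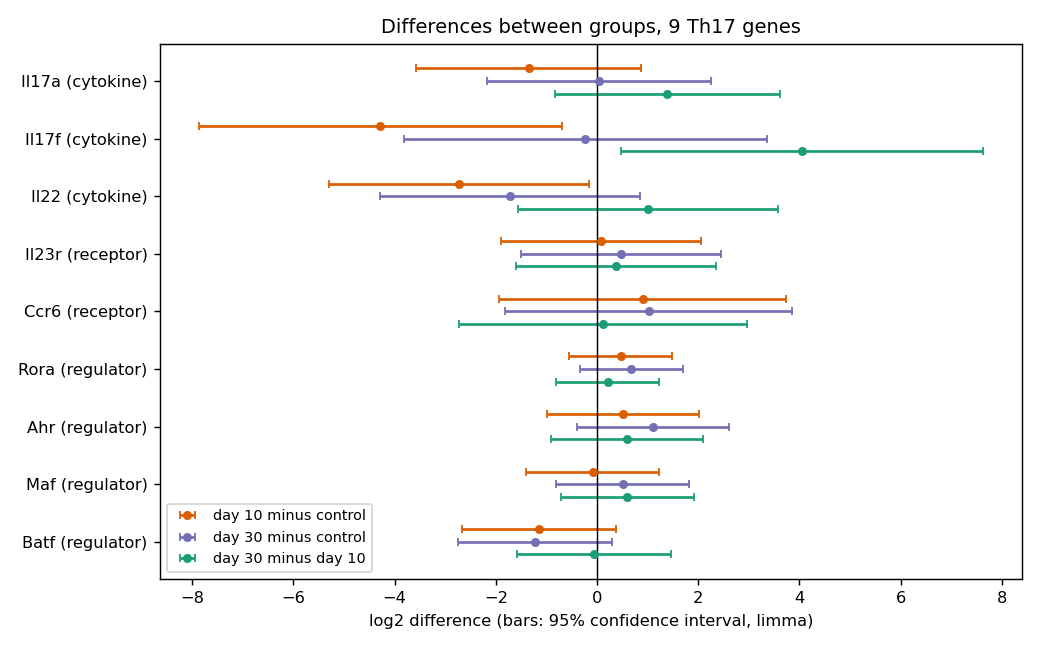
Log2 differences of the 9 genes (x axis) for day 10 minus control, day 30 minus control and day 30 minus day 10, with points for the difference of group means over 5 arrays each and bars for the 95% confidence interval from limma. The intervals of Il17f lie off 0 at day 10 against control (-7.86 to -0.70) and at day 30 against day 10 (0.47 to 7.63), and that of Il22 at day 10 against control (-5.31 to -0.15), without allowance for slide.

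The cytokine genes were also set against the receptor and regulator genes array by array, as the mean level of the 3 cytokines minus the mean level of the other 6. This difference was -2.15, -5.17, -4.38, -4.86 and -5.32 at day 10, -2.26, -1.19, -1.05, -4.10 and -4.04 at day 30, and -1.76, -3.71, -0.47, -0.03 and -1.36 in control. The 4 lowest day 10 arrays lay below every other array, while day 10 replicate 1 fell among the day 30 and control arrays. The means were -4.37 ± 1.30 at day 10, -2.53 ± 1.48 at day 30 and -1.47 ± 1.43 in control (SD, n = 5 each). The group means of the cytokines alone differed by -2.79 between day 10 and control, and those of the receptors and regulators by 0.12. Between day 30 and control these values were -0.64 and 0.43. With normexp background correction the contrast between the sets differed by -1.57 between day 10 and control, against -2.91 as first processed. It was given no test, since the genes were chosen with results known.

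Detection was counted as well. Cytokine values were well above background in 9 of 15 cases at day 10, in 13 of 15 at day 30 and in 14 of 15 in control. Receptor and regulator values were well above background in 28 of 30 cases at day 10, 27 of 30 at day 30 and 28 of 30 in control. The cytokine counts differ through Il17a and Il17f only, since Il22 was well above background everywhere. The 4 regulators were bright on all arrays and could hardly vary in this count, and Ccr6, the dim gene of that set, stood at 3 of 5 in each group, so the counts do not set the cytokines apart from the other genes. All 3 cytokines were well above background together on 1 array at day 10, 3 at day 30 and 4 in control.

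**Figure D4:**
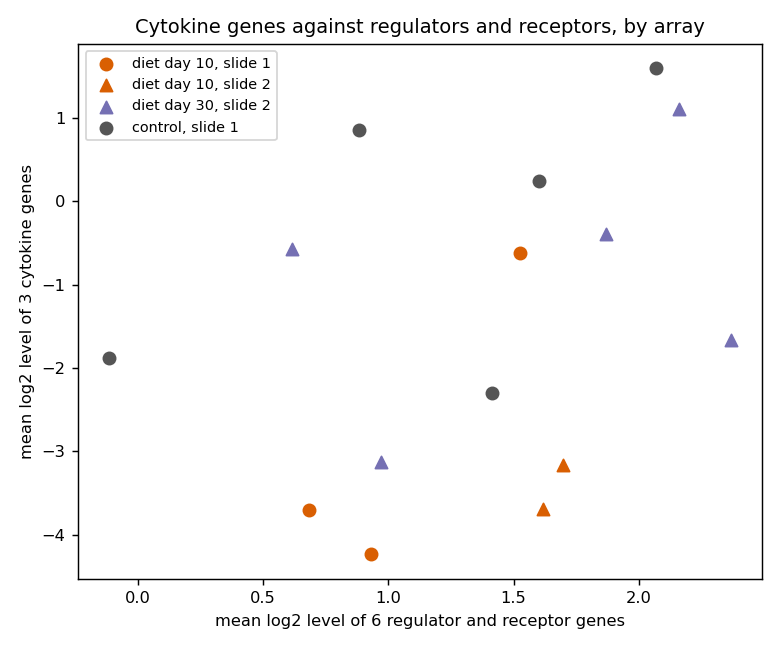
Mean log2 level of the 3 cytokine genes (y axis) against the mean log2 level of the 6 regulator and receptor genes (x axis), with 1 point per array, coloured by group and shaped by slide. The day 10 arrays other than replicate 1 have cytokine means between -4.24 and -3.16, below all other arrays, and regulator and receptor means of 0.69 to 1.70, inside the range of the other groups.

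The genes also differed in their spread between arrays of a group. The residual SD of Il17f, pooled over the 3 groups, was 2.99 log2 units, higher than that of 97.6% of the genes tested. Those of Ccr6, Il22 and Il17a were 2.30, 2.11 and 1.71, against a median of 1.37 over all genes. The regulators were steadier than most genes, from 0.82 for Rora to 1.18 for Batf. The genes with the widest spread were thus also those with the most arrays not well above background, apart from Il22.

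No pair of cytokine genes had a correlation across arrays that passed the test. After group means were removed, the correlation over 15 arrays was r = 0.09 and rho = 0.33 for Il17a and Il17f (permutation p = 0.750 and 0.227, adjusted over the 3 pairs 0.750 and 0.333). It was r = 0.24 and rho = 0.33 for Il17a and Il22 (permutation p = 0.391 and 0.239, adjusted 0.586 and 0.333), and r = 0.27 and rho = 0.27 for Il17f and Il22 (permutation p = 0.336 and 0.333, adjusted 0.586 and 0.333). Without the 2 arrays farthest from the median of the first gene, r was 0.18, 0.33 and 0.19 in the same order of pairs. Within slide 1, on 8 arrays, r was 0.39, 0.64 and 0.27, and within slide 2, on 7 arrays, it was -0.21, -0.07 and 0.26.

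Further genes of the pathway were read from 3 lists. Of 10 genes for the receptors and signalling that induce Th17 cells, 7 had higher and 3 lower means at day 10 than in control, with a median difference of 0.23, and 6 had higher and 4 lower means at day 30, with a median of 0.15. Tyk2, a kinase of the interleukin 23 receptor, differed by 2.90 (SE 1.44) between day 10 and control. Il21r, the receptor of interleukin 21, differed by 1.04 (SE 0.47) between day 30 and control and was at an unadjusted limma p of 0.0416, with an adjusted p of 0.927. Il1r1, the receptor of interleukin 1, differed by -2.23 (SE 1.30) between day 30 and control. No gene of these lists passed the adjusted test in any comparison.

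Of 7 transcription factor genes, 2 had higher and 5 lower means at day 10 than in control, with a median of -0.24, and the counts were the same at day 30, with a median of -0.03. Runx1, a factor of T cell development that takes part in Th17 differentiation, had the smallest unadjusted p of all listed genes. It was well above background on 1 of 5 arrays at day 10, on 2 of 5 at day 30 and on 5 of 5 in control. Its log2 difference between day 10 and control was -4.46 (SE 1.44), with an unadjusted p of 0.00703 and an adjusted p of 1.00 in limma, and that between day 30 and control was -2.91 (SE 1.44). Nfkbiz, which encodes the nuclear IκB protein IκBζ, differed by -0.86 (SE 0.72) at day 10 and -1.14 (SE 0.72) at day 30 against control.

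Of 7 further Th17 products, 4 were bright enough to be tested, and Il21, Ccl20 and Il17re were not. Ccl20, the ligand of CCR6, was well above background on 0 arrays. At day 10 against control, 2 had higher and 2 lower means, and the counts were the same at day 30. Il10, the anti-inflammatory cytokine that c-Maf drives, differed by -1.25 (SE 0.61) between day 30 and control. Csf2, which encodes GM-CSF, was well above background on 3 of 5 arrays at day 10, 1 of 5 at day 30 and 1 of 5 in control.

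The sort was checked on marker genes. All 7 CD4 T cell markers, among them Cd4, Cd3e and Thy1, were well above background on all 15 arrays. Their summed level, in multiples of the array's 75th percentile, ranged from 74.3 to 136 at day 10, from 84.9 to 220 at day 30 and from 36.6 to 172 in control, and all 7 had higher means at day 30 than in control, with a median log2 difference of 0.76 and an adjusted limma p of 0.927 or more. Taking the percentile over probes detected on all arrays moved the median of all genes between day 30 and control from 0.0049 to -0.38. The markers are not given with that percentile. For innate lymphoid cells, 6 of 8 markers were tested, and the summed level of the list ranged from 4.27 to 9.64 at day 10, from 1.11 to 12.9 at day 30 and from 3.71 to 15.01 in control. Between day 10 and control 3 of the 6 had higher and 3 lower means, from -0.46 (SE 1.58) for Tox to 1.89 (SE 1.37) for Ncr1, with a median of -0.09. Ncr1 was well above background on 5 of 5 arrays at day 10, 3 at day 30 and 2 in control. Between day 30 and control 3 of the 6 had higher and 3 lower means, from -2.80 (SE 1.07) for Kit to 0.77 (SE 1.52) for Klrb1b, with a median of -0.02. Id2 was well above background on 0, 0 and 1 of 5 arrays at day 10, at day 30 and in control. For γδ T cells, 4 of 6 markers were on the array by name and only Zbtb16 was tested, at -0.91 (SE 0.63) between day 10 and control.

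Markers of other cells were read in the same way. Of the macrophage and dendritic cell markers, Lyz2 was well above background on 0 of 5 arrays at day 10, 3 at day 30 and 3 in control. Csf1r, on all 15 arrays, differed by -0.20 (SE 0.37) between day 10 and control, and Adgre1 by 0.51 (SE 1.33), so these markers shared no direction. The whole list, with 3 of 4 markers tested, had summed levels of 6.57 to 12.1 at day 10, 5.88 to 14.8 at day 30 and 4.95 to 16.0 in control. Epithelial markers, 4 of 4 tested, had summed levels of 0.30 to 1.80 at day 10, 0.39 to 2.73 at day 30 and 0.74 to 2.73 in control. For B cells, 2 of 4 markers were tested, and Ms4a1 was well above background on 0 arrays. Pax5 was so on 5 of 5 arrays in each group, and Cd79a on 2 at day 10, 4 at day 30 and 2 in control. Between day 30 and control Cd79a differed by 2.03 (SE 1.10) and Pax5 by 0.54 (SE 0.62). Between day 10 and control they differed by -0.17 and 0.13. For CD8 T cells 1 of 2 was tested, Cd8a, well above background on 4 arrays at day 10, 3 at day 30 and 5 in control. It differed by -1.21 (SE 1.14) between day 30 and control and by 0.61 between day 10 and control. The part of these cells in the cytokine readings was not tested.

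Genes whose levels across the 15 arrays were most like those of a member were ranked by Pearson r among 16200 genes, with dim values replaced as above. The closest to Il17f was Rce1 (r = 0.81), followed by Cdkn1a (r = 0.81) and Zc3h7b (r = 0.81). The closest to Il22 was Pdcl (r = 0.85) and the closest to Il17a was Sdf4 (r = 0.92). For the regulators they were Dek for Rora (r = 0.99), Tigit for Maf (r = 0.96), Eea1 for Ahr (r = 0.92) and Rcn1 for Batf (r = 0.85), and for the receptors Aven for Il23r (r = 0.84) and Wdr7 for Ccr6 (r = 0.90). Group means were not removed here. Rora and Maf were both lowest on control replicate 1, at 2.64 and 1.84, and the part of that array in their r values was not tested. No member was among the 3 genes closest to another member. All points share arrays and their detection shares, and with 15 arrays such maxima over many genes describe these arrays only.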

How the data were processed

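RNA of sorted CD4 T cells was amplified with SuperAmp, 250 ng of cDNA was labelled with Cy3, and each sample was hybridised to 1 array, per the labels' protocols. The scanner files hold linear intensity values from Agilent Feature Extraction 10.7.3.1, on a grid annotated with build mm9, with the background subtracted by the authors within each array only, per the file headers. A table of log2 values deposited by the authors covers the same arrays but lacks values for many dim spots, and the sources used here do not state how its scale and centring arose.

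Each array's processed intensity was taken as log2 minus the array's 75th percentile over non-control probes. Control spots, outlier spots and 1 damaged spot line were left out, and spots of a probe were averaged. Genes were named with RefSeq symbols where the listed transcript matched (29573 of 55680 probes). A gene was its probe of highest mean, tested if well above background on at least 5 of 15 arrays, which kept 25997 genes and left out 8819. The 15 arrays entered 1 fit of group means in limma 3.58.1 under R 4.3.3 (lmFit, eBayes with trend, two-sided), with Benjamini-Hochberg adjustment over all genes and a threshold of 0.05. The fit was tested on simulated data with the residual spread of these genes, 200 of them changed by 4 log2 units at day 10. It recovered 86 of the 200 (43%) and called 5 unchanged genes. A gene that did not pass may thus still differ by that much. Correlations used 100000 permutations in scipy 1.17.1. All members are named, and like genes are among the top 3 by r. Pathway genes given with a difference are examples of small unadjusted p on their lists in the comparisons with control, up to 6 a comparison. The members and lists were chosen with earlier results of these data known. Of the listed pathway genes, 1 is not reported here by name. Alternatives were normexp background correction, quantile normalization, the percentile over probes detected on all arrays, no filter, raised dim values, slide and replicate number as blocks, the mean of a gene's probes, detection share as a covariate, the deposited table, single slides and leaving out each array. Precision is limited by 5 arrays a group.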

Additional observations from a re-analysis of the deposited data

Results flagged for a closer look

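In the day 30 group, the Il17f level of replicate 4, at -5.07, lay far below the other 4 arrays, with a gap of 0.79 of the group's whole range. It was 1 of 30 groups checked in this way, and chance marks about 1 in 20. That array was not well above background for Il17f.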

How the results depend on the processing

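Of 558 alternative log2 differences for the 9 genes, 488 kept their sign and 70 changed it, and 0 passed the adjusted limma test (smallest adjusted p = 0.58). Some of these could not change sign. Without the filter and with replicate number as a block the differences equal those first given, and the mean of probes alters only Maf. Values within 1 slide repeat those with slide as a block, so the 488 are not independent checks. Il22 kept its sign in all 3 comparisons under every alternative, as did Ccr6 at day 10 against control and Batf at day 30 against control. At day 10 against control the opposite signs were, in the deposited table, 0.093 for Il17a, 1.15 for Il17f, -0.053 for Il23r and 0.19 for Batf. With detection share as a covariate they were -0.38 for Il23r, -0.0019 for Rora and -0.057 for Ahr. Il23r was -0.60 both with slide as a block and within slide 1, and -0.0040 with the percentile over probes detected on all arrays, and Maf was 0.66 with the mean of its probes. At day 30 against control they were, with slide as a block, -0.87 for Il17a, 1.37 for Il17f, -1.24 for Il23r and -0.12 for Ahr. With the detection covariate they were -1.68 for Il17a, -0.62 for Il23r, -0.42 for Rora, -0.22 for Ahr and -1.04 for Maf. In the deposited table they were -0.44 for Il17a, 0.036 for Il17f, -0.020 for Rora and -0.14 for Maf. Il17f was 0.022 with normexp and Il17a -0.34 with the percentile over detected probes. At day 30 against day 10 they were, in the deposited table, -0.54 for Il17a, -1.12 for Il17f and -0.21 for Rora. With the detection covariate they were -0.24 for Il23r, -0.41 for Rora, -0.17 for Ahr and -0.29 for Maf. With slide as a block and within slide 2 they were -0.64 for Il23r and -0.14 for Ahr. With the percentile over detected probes they were -0.18 for Ccr6 and -0.085 for Rora, with quantile normalization -0.090 for Rora, and with the mean of its probes -0.65 for Maf. The deposited table holds few values of some genes: Il17f on 1, 4 and 5 arrays at day 10, at day 30 and in control, Il17a on 1, 3 and 2, and Batf, though bright in the scanner files, on 1, 1 and 2. The causes were not tested.

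Leaving out 1 array gave opposite signs for 29 of the values. The ranges at day 10 against control were -0.25 to 0.51 for Il23r, -0.12 to 0.69 for Rora and -0.68 to 0.32 for Maf. At day 30 against control they were -0.59 to 0.62 for Il17a, -1.13 to 1.11 for Il17f, -0.087 to 1.33 for Il23r, -0.38 to 1.73 for Ccr6 and -0.086 to 0.92 for Maf. At day 30 against day 10 they were -0.17 to 1.24 for Il23r, -1.28 to 0.83 for Ccr6 and -0.48 to 0.28 for Batf.

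The cytokine mean minus the receptor and regulator mean, which differed by -2.91 between day 10 and control and by 1.85 between day 30 and day 10, differed by -0.29 in both in the deposited table and by -1.57 and 0.79 with normexp. Between day 30 and control it differed by -1.06, and by 0.13 with slide as a block. Leaving out 1 array gave -3.47 to -2.55 at day 10 against control, -1.62 to -0.67 at day 30 against control and 1.48 to 2.40 at day 30 against day 10. Within slide 2 the correlations of Il17a with Il17f and Il22 were -0.21 and -0.067. Genes called between day 30 and control numbered 1 with slide as a block (Vkorc1l1), and between day 30 and day 10 from 0 to 2 over leaving out 1 array (As3mt and Suclg2 without day 10 replicate 4). With that array left out of the shared fit, As3mt and Suclg2 were also called between day 30 and control, and without day 30 replicate 4 Olfr1201 was called between day 10 and control. Same-numbered samples of different groups correlated at -0.13 to 0.15, with a median of 0.009 against 0.004 for the other pairs. These correlations showed no pairing by number, but weak correlations cannot exclude it, and the labels do not state it. With the replicate number as a block 0 genes were called in each comparison. The median of all genes moved by over 0.1 between day 30 and control (to -0.23 in the deposited table, -0.38 with the percentile over detected probes, 0.15 with slide as a block and 0.12 with dim values raised) and between day 30 and day 10 (to -0.13 and -0.24 in the deposited table and with that percentile). No value within 1 slide was possible for day 30 against control. Dim signal limits Il17a, Il17f and Ccr6.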
